A study of Mus musculus with 12 samples.

Results

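The effect of losing Gdown1 in livers that keep p53 was read from 4 of the 12 libraries of a mouse liver RNA sequencing series, as the difference at 7 weeks between KO livers (2 libraries) and FF livers (2 libraries). Of the 23420 genes counted, the 13693 that passed an expression filter were tested, and the account is not limited to targets of p53. FF mice are C57BL/6 animals with both alleles of Gdown1 floxed (Gdown1 flox/flox) and no Cre named in their labels. KO mice are C57BL/6 and carry the same floxed alleles with Alb-Cre, a Cre recombinase driven by the albumin promoter. It deletes the gene in hepatocytes, and which other liver cells keep the floxed allele was not measured. Neither group carries a p53 mutation in its labels, and both ages are 7 weeks. For 1 comparison near the end, 4 libraries of C57BL/6 livers at 8 weeks were used: p53KO (Gdown1 flox/flox, p53-/-) and DKO (Gdown1 flox/flox, Alb-Cre, p53-/-), 2 libraries each. Cre is present wherever Gdown1 is deleted, so effects of Cre and of the deletion cannot be told apart. The filter, the scaling and the spread behind each p-value were taken from all 12 libraries. These include 4 of livers taken 24 hours after tamoxifen (p53KO_TAM and DKO_TAM, 2 each), whose effects are not described. The labels do not say that the 2 libraries of a group come from separate animals. The p-values rest on how libraries vary within all 6 groups, which may be technical.

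Gdown1, the product of Polr2m, is a protein that associates with RNA polymerase II and competes with initiation factors for the polymerase; in vitro it makes transcription depend on the Mediator complex. The hepatocyte, the main cell of the liver, devotes much of its messenger RNA to secreted plasma proteins and to enzymes of metabolism. The transcription factor p53 is held low by the ubiquitin ligase Mdm2 and, when it accumulates, raises genes of cell cycle arrest, cell death, metabolism and DNA repair.

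The 4 libraries held 4939408 and 6778970 counts (FF replicates 1 and 2) and 5508935 and 5129486 counts (KO replicates 1 and 2). At these depths 3 counts equal 0.508 to 0.678 CPM (counts scaled to library size). CPM values are scaled with TMM, which takes most genes as unchanged, and values for 2 libraries are given as replicate 1 and replicate 2. Fold changes are KO over FF on the log2 scale with their standard error, and a gene was called changed at an adjusted p under 0.05 (edgeR's quasi-likelihood test, Benjamini-Hochberg adjustment over all genes tested). The deletion was checked first on Polr2m (chromosome 9, 71478437 to 71485983, minus strand, genome build mm10). Polr2m stood at 100.3 and 96.7 CPM in FF and at 64.7 and 59.4 in KO livers, a fall of 0.67 on the log2 scale (adjusted p = 0.0024). Which exons are floxed is not given in the sources used here, and whole liver includes cells in which Alb-Cre is not active. Trp53, the gene of p53, stood at 13.1 and 7.94 CPM in FF and 17.1 and 22.5 in KO livers (0.93 ± 0.24, adjusted p = 0.013), but this call was lost without FF replicate 2 (adjusted p = 0.20) and without KO replicate 2 (adjusted p = 0.14).

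Loss of Gdown1 changed genes in both directions, and with TMM scaling the genes called lower held more of the counts than those called higher. Of the genes tested, 14.8% were called, 2026 in all: 947 higher in KO (6.92%) and 1079 lower (7.88%). These 2 shares are the background for each list count below. In all 2026 called genes the libraries of the 2 groups did not overlap, so a lack of overlap adds nothing to a call. The genes called lower took 32.9% and 32.5% of all counts in the FF libraries and 18.8% and 19.2% in the KO libraries. The genes called higher took 3.73% and 3.78% in FF and 7.60% and 7.76% in KO. Genes not called took 63.3% and 63.6% in FF and 73.5% and 73.0% in KO. Shares of a library add up to a fixed total, so a smaller share of some genes raises that of others. Changes of at least 2-fold were seen in 428 called genes upward and 375 downward, and of at least 4-fold in 143 and 117. The median log2 change over all genes tested was 0.02. The split between higher and lower depends on scaling: with library totals alone the median of all genes moved up by 0.26 and the calls became 2744 higher and 550 lower (83.3% higher against 46.7%). Under every one of 14 alternative settings in which they had an adjusted p, 644 genes were called (260 higher and 384 lower). Some of the genes given below do not belong to these. A gene that a setting left without an adjusted p, for instance by its filter, counts as kept there, also in the list counts below.

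**Figure D1:**
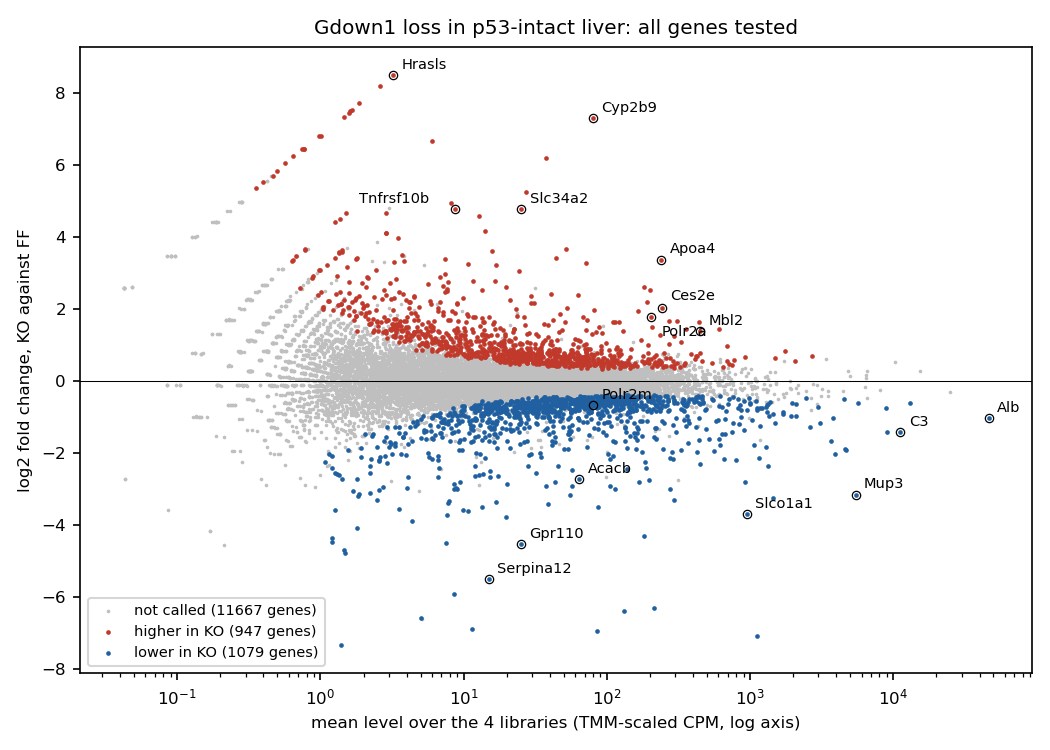
Each point is 1 of the 13693 genes tested; the horizontal axis is the mean level over the 4 libraries (TMM-scaled CPM, log axis) and the vertical axis the log2 fold change, KO over FF. Coloured points are the 947 genes called higher and the 1079 called lower at an adjusted p under 0.05; labelled genes are described in the text. Falls reach the right of the plot, where the high levels lie. For genes with few or no counts in 1 group, such as Hrasls, the plotted change depends on the small count that the fit adds and is no bound.

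Polr2a, which encodes the largest subunit of RNA polymerase II, the enzyme Gdown1 binds, was among the genes that rose with the smallest p. It stood at 88.3 and 94.1 CPM in FF and 331 and 297 in KO livers, 3.44-fold higher (1.78 ± 0.13, adjusted p = 1.6e-07). Among 22 tested genes of polymerase subunits and associated proteins, 3 rose and 1 fell, with a median of 0.32; Polr2a and Polr2m were the only ones called under every alternative, and Polr2m itself is the fall. Of 32 general transcription factors tested, 5 rose (15.6%) and 2 fell (6.25%), with a median of 0.09. Over all genes tested, 6.92% were called higher and 7.88% lower. Of 32 Mediator subunits tested, 2 rose (6.25%) and 1 fell (3.125%). In both of these lists no call held under every alternative. Of 40 factors of pausing, elongation and termination, 5 rose (12.5%) and 3 fell (7.5%), 1 and 1 of them under every alternative. Supt5, a subunit of the elongation and pausing factor DSIF, stood at 58.5 and 44.9 CPM in FF and 91.1 and 99.2 in KO (0.89 ± 0.14, adjusted p = 4.8e-04). Tcea3, a liver-expressed form of the elongation factor TFIIS, went from 86.8 and 74.1 to 33.4 and 35.2 CPM (-1.23 ± 0.16, adjusted p = 6.7e-05).

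Genes known as p53 targets rose in number, and none of the 18, 20 and 19 tested members of the 3 p53 lists was called lower. Of the targets of arrest and feedback, 12 rose (6 under every alternative), with a median of 1.69. Of the targets of cell death, 10 rose (6 under every alternative), with a median of 0.58, and of those of metabolism and repair 7 (3 under every alternative), with a median of 0.67. These shares of 12 in 18, 10 in 20 and 7 in 19 compare with 6.92% of all genes called higher. Some targets rose from low levels: Cdkn1a, the cell cycle inhibitor p21, stood at 1.13 and 0.864 CPM in FF and 64.4 and 83.0 in KO livers, 73.8-fold higher (6.21 ± 1.14, adjusted p = 0.015), with calls lost at adjusted p = 0.088 without FF replicate 1, 0.12 without FF replicate 2 and 0.058 without KO replicate 2.

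Promoters of these genes were searched because p53 binds a defined DNA element. Windows of RefSeq (GRCm38.p6) from 250 bases before to 50 after the start site were found for 10090 of the genes tested. A gene can have several start sites, and a match at any of them was counted. Distances below are from the start site of the window that holds the match, which need not be the main one. The p53 consensus of 20 bases was searched with at most 1 mismatch. The core C and G of both repeats were fixed, and no gap between the repeats was allowed. It was present in 6 genes (0.0595%). Of these, 4 stand on the p53 lists (of 44 list members with a window), and all 4 were called higher: 4 of the 719 genes called higher that have a window held it, and 0 of the 801 called lower. The matches, in capitals in 30 bases read 5′ to 3′ on the gene's strand, are shown because p53 is known to act by binding elements of this form.
Ccng1, chr11:40755457-40755486, minus strand, match begins 195 bases before the start site: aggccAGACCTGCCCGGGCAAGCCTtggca
Cdkn1a, chr17:29090923-29090952, plus strand, match begins 51 bases before the start site: ttcagGAACATGTCTTGACATGTTCagccc
Gtse1, chr15:85859940-85859969, plus strand, match begins 1 base before the start site and runs across it: accggGAGCAAGTTGGGGCTTGCCTctgac
Rps27l, chr9:66946291-66946320, plus strand, match begins 117 bases before the start site: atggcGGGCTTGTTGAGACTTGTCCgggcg
A match is a description of the sequence and not a measured binding site.

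Ccng1, cyclin G1, rose from 67.3 and 69.1 CPM in FF to 224 and 302 in KO livers (1.95 ± 0.15, adjusted p = 3.7e-07), an increase well beyond the difference between libraries of a group. Gtse1, a regulator of p53 and of microtubules, rose from 1.13 and 2.07 to 10.3 and 15.96 CPM (2.97 ± 0.38, adjusted p = 6.2e-05). Rps27l, a ribosomal protein paralogue, stood at 33.7 and 42.3 in FF and 59.97 and 58.6 in KO (0.64 ± 0.15, adjusted p = 0.0084), which missed the threshold when FF replicate 1 was left out (adjusted p = 0.10). The feedback arm of the pathway rose with its effectors. Mdm2, the ligase that degrades p53, stood at 61.0 and 57.3 CPM in FF and 145 and 223 in KO livers (1.64 ± 0.18, adjusted p = 1.3e-05). Sesn2, sestrin 2, a stress-induced inhibitor of mTORC1 signalling, rose from 2.71 and 4.49 to 12.7 and 14.8 CPM (1.89 ± 0.29, adjusted p = 3.3e-04). Psrc1, a spindle protein, had 1 count over both FF libraries and 131 over both KO libraries, a ratio of 121-fold (counting interval 21.3 to 4796), which covers counting error only. Its fitted log2 change ranged from 5.97 to 9.41 with 1 library left out.

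Members that act in cell death rose in the receptor arm and in the mitochondrial arm of apoptosis. Tnfrsf10b, the death receptor for TRAIL, rose from 0.904 and 0.345 to 15.8 and 17.9 CPM (4.79 ± 0.41, adjusted p = 1.1e-06; 4.19 to 5.53 with 1 library left out). Fas, another death receptor, went from 19.9 and 25.4 to 46.1 and 51.7 CPM (1.10 ± 0.16, adjusted p = 1.7e-04). Bax, which permeabilises the mitochondrial outer membrane, went from 5.20 and 5.18 to 19.5 and 16.3 CPM (1.79 ± 0.29, adjusted p = 5.9e-04). Apaf1, the scaffold of the apoptosome that activates caspases downstream of mitochondria, rose by 1.598 ± 0.21 on the log2 scale (adjusted p = 7.8e-05) and Aen, a nuclease of apoptotic cells, by 2.17 ± 0.23 (adjusted p = 8.3e-06). Phlda3, an inhibitor of Akt signalling, stood at 0.452 and 0.518 CPM in FF and 13.2 and 18.5 in KO livers (4.96 ± 0.48, adjusted p = 5.7e-06). Among targets of metabolism and repair, Ephx1, the microsomal epoxide hydrolase, stood at 193 and 233 CPM in FF and at 546 and 778 in KO livers (1.63 ± 0.23, adjusted p = 6.6e-04). Polk, a DNA polymerase that copies across damaged bases, rose by 2.04 ± 0.21 (adjusted p = 6.2e-06), and the uncharacterised transcript 9030617O03Rik by 1.65 ± 0.13 (adjusted p = 6.7e-07).

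Genes of mitosis rose in part and from low levels. Of 45 tested, 19 rose and 0 fell, with a median of 1.34, but only 3 kept their call under every alternative, and with 1 library left out the count ran from 5 to 19. Top2a, the topoisomerase that untangles chromosomes before division, went from 8.59 and 5.01 to 18.8 and 22.5 CPM (1.63 ± 0.22, adjusted p = 1.1e-04). Kif11, a kinesin motor of the bipolar spindle, went from 4.97 and 4.15 to 12.2 and 9.80 CPM (1.29 ± 0.22, adjusted p = 0.0010). Mybl2, a transcription factor of the G2/M programme, had 3 counts over the FF and 31 over the KO libraries, a ratio of 9.51-fold (counting interval 2.97 to 48.6). In DNA replication and the entry to S phase, 7 of 50 genes were higher (14.0%, against 6.92% of all genes). The 4 lower made 8.0%, against 7.88% of all genes, and the median was 0.38. Pcna, the sliding clamp of DNA polymerases, rose by 0.83 ± 0.15 (adjusted p = 0.0011), and Brca1, a factor of homologous recombination, by 1.88 ± 0.23 (adjusted p = 3.3e-05). Of 42 genes of damage sensing and repair, 4 rose and 1 fell, none under every alternative.

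The promoters of the mitosis genes were examined for the cell cycle homology region, a short element bound by the MuvB complexes that repress these genes outside G2/M. Its core was searched as TTTGAA on both strands. It was present in 14.7% of the 10090 promoter windows, in 29 of 38 mitosis genes with a window (76.3%) and in 13 of the 16 of them that were called higher. In the windows of genes of G1/S and replication the share was 15.0%, among all genes called higher 13.1% and among all called lower 15.9%. The windows below, 30 bases 5′ to 3′ on the gene's strand with the match in capitals, are shown for 3 of these genes near the start site.
Kif11, chr19:37376351-37376380, plus strand: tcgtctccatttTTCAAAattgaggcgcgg
Top2a, chr11:99024195-99024224, minus strand: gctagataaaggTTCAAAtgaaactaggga
Hmmr, chr11:40733412-40733441, minus strand: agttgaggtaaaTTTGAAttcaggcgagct
Hmmr, a hyaluronan receptor that also acts at the spindle, stood at 3.62 and 2.59 CPM in FF and 8.47 and 9.04 in KO livers (1.52 ± 0.30, adjusted p = 0.0026), with its call lost at adjusted p = 0.053 without FF replicate 2.

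Some of the large rises were in genes outside these lists. Slc34a2, a sodium-phosphate cotransporter, stood at 1.81 and 1.73 CPM in FF and 53.5 and 43.8 in KO livers, 27.4-fold higher (4.78 ± 0.40, adjusted p = 1.7e-05). Atp8b5, of the family of phospholipid flippases, went from 0.678 and 2.07 to 26.4 and 27.1 CPM, 18.2-fold higher (4.18 ± 0.42, adjusted p = 6.1e-06; 3.68 to 5.27 with 1 library left out). Slc1a1, a glutamate transporter, had 2 counts over the FF and 60 over the KO libraries, a ratio of 27.6-fold (counting interval 7.31 to 233). These 3 genes were low in both FF libraries and higher in both KO libraries. Abhd2, a serine hydrolase that acts on lipids, rose from 65.5 and 71.9 to 318 and 312 CPM (2.20 ± 0.19, adjusted p = 2.5e-06), and its libraries within a group nearly coincided. Chka, choline kinase alpha, which opens the synthesis of phosphatidylcholine, rose from 34.1 and 31.3 to 116 and 144 CPM (1.99 ± 0.16, adjusted p = 4.9e-07). G6pdx, glucose-6-phosphate dehydrogenase, the entry to the pentose phosphate pathway and a source of NADPH, rose from 9.49 and 9.67 to 53.5 and 46.3 CPM (2.38 ± 0.19, adjusted p = 5.6e-07). In each of these genes the higher FF library lay far below the lower KO library.

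Robo1, a receptor for Slit guidance proteins, rose from 18.98 and 21.8 to 77.8 and 71.3 CPM (1.87 ± 0.15, adjusted p = 4.9e-07). Gria3, a subunit of AMPA-type glutamate receptors, rose from 9.72 and 5.70 to 82.2 and 110.3 CPM (3.67 ± 0.36, adjusted p = 6.6e-05). Ptprz1, a receptor tyrosine phosphatase, had 3 counts over the FF and 59 over the KO libraries, a ratio of 18.1-fold (counting interval 5.90 to 90.2). The linker histone gene H1fx likewise had 3 and 60 counts, a ratio of 18.4-fold (counting interval 6.00 to 91.7). Abca14, an ABC transporter gene, rose by 3.41 ± 0.46 (adjusted p = 1.3e-04), and Shc4, a signalling adaptor, by 3.51 ± 0.60 (adjusted p = 8.6e-04; 2.69 to 8.61 with 1 library left out). A pair of genes had no count in either FF library: Hrasls, a phospholipid-metabolising acyltransferase, with 70 counts in KO, was at least 21.5-fold higher, and Cox6b2, a testis-type subunit of cytochrome c oxidase, with 58 counts, at least 17.8-fold higher, both against a floor of 3 counts over the FF group. Abat, the transaminase that breaks down the neurotransmitter GABA and is abundant in liver, stood at 388 and 546 CPM in FF and 907 and 931 in KO livers (0.98 ± 0.19, adjusted p = 0.0031), among the largest gains in CPM.

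**Figure D2:**
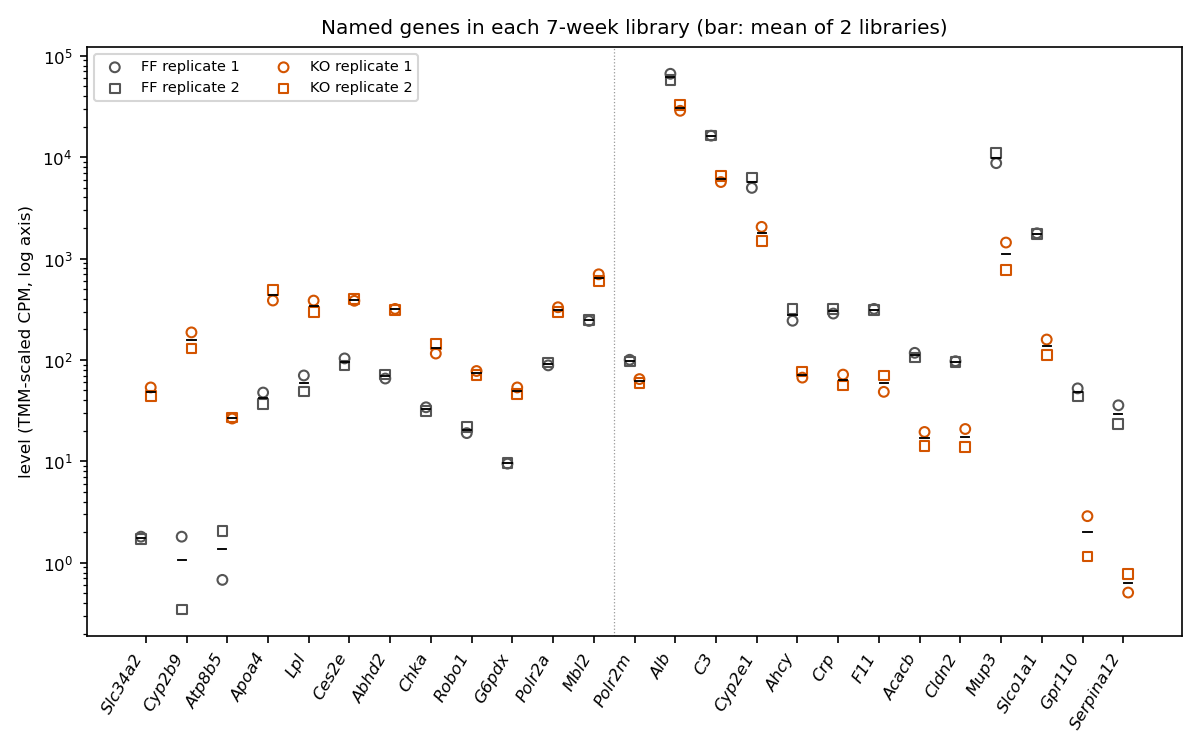
Level of single genes in each of the 4 libraries (TMM-scaled CPM, log axis); grey symbols are FF and orange symbols KO livers, circles are replicate 1 and squares replicate 2, and short bars are means of 2 libraries. Genes left of the dotted line rose and those right of it fell. The symbols of the 2 groups do not overlap, which holds for all 2026 called genes. Cyp2b9 stood at 1.81 and 0.345 CPM in FF and 187 and 129.8 in KO.

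In each list of secreted plasma proteins more members were called lower than higher with TMM scaling. Apart from complement and the major urinary proteins, most members of these lists were not called. Alb, serum albumin, stood at 66287 and 57756 CPM in FF and 28609 and 32815 in KO livers, 2.02-fold lower (-1.01 ± 0.17, adjusted p = 9.3e-04), the largest fall in CPM of any gene. Of 47 tested carriers, inhibitors and serpins, 15 fell (12 under every alternative) and 2 rose, with a median of -0.40, against 7.88% of all genes called lower. Mug1, a murinoglobulin that inhibits proteases, went from 13058 and 13085 to 5168 and 4703 CPM (-1.41 ± 0.16, adjusted p = 1.5e-05). Serpina3k, a serine protease inhibitor, went from 7017 and 7665 to 1828 and 2067 CPM (-1.91 ± 0.18, adjusted p = 3.6e-06). Both lie in families of close copies, where reads that map to several genes can be lost or shared. Trf, transferrin, the iron carrier of plasma, fell from 10512 and 11613 to 6391 and 6928 CPM (-0.73 ± 0.15, adjusted p = 0.0036), and Afm, afamin, a vitamin E carrier, by 1.62 on the log2 scale (adjusted p = 3.2e-06). Itih3, a hyaluronan-binding heavy chain, fell by 1.93 (adjusted p = 1.6e-05) and Azgp1, zinc-alpha-2-glycoprotein, by 1.24 (adjusted p = 1.0e-05).

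Serpina12, or vaspin, a serpin secreted by fat and liver, showed the largest log2 fall among called genes with at least 5 CPM in FF livers, apart from the major urinary proteins described below. It stood at 35.7 and 23.1 CPM in FF and 0.508 and 0.769 in KO livers, 45.0-fold lower (-5.49 ± 0.39, adjusted p = 1.6e-07). Next to it came Gpr110, an adhesion-type G protein-coupled receptor, with 52.4 and 43.5 CPM in FF and 2.88 and 1.15 in KO livers (-4.52 ± 0.33, adjusted p = 4.8e-07; -5.35 to -4.06 with 1 library left out). Another serpin, Serpina3n, which is induced in the acute phase, went the other way, from 283 and 363 to 778 and 994 CPM (1.46 ± 0.27, adjusted p = 0.0037). The acute phase list as a whole held 30 tested genes, of which 1 rose and 4 fell. Crp, C-reactive protein, fell from 287 and 320.4 to 71.7 and 55.9 CPM (-2.25 ± 0.15, adjusted p = 9.6e-08). Lbp, which presents bacterial lipopolysaccharide to its receptor, fell by 0.97 (adjusted p = 2.3e-04).

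Complement genes were called lower in 15 of 30 tested members against 1 higher (median -0.43), but most of these falls were small and 4 held under every alternative. With library totals alone the same list had 7 higher and 5 lower. C3, the protein on which the complement pathways converge, stood at 16268 and 16341 CPM in FF and 5675 and 6564 in KO livers (-1.41 ± 0.18, adjusted p = 7.1e-05). C9, which forms the pore of the membrane attack complex, fell by 1.36 (adjusted p = 4.8e-05), Cfb, factor B of the alternative pathway, by 0.63 (adjusted p = 0.0038) and Masp1, a protease of the lectin pathway, by 1.16 (adjusted p = 8.3e-06). The single rise was Mbl2, a mannose-binding lectin that starts that pathway. Mbl2 stood at 242 and 248 CPM in FF and 699 and 596 in KO livers (1.40 ± 0.15, adjusted p = 1.3e-05).

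Of 35 genes of coagulation and fibrinolysis, 6 fell and 2 rose (5 and 5 with library totals alone), 5 and 0 of them under every alternative. F11, coagulation factor XI, fell from 319 and 309 to 48.5 and 70.4 CPM (-2.40 ± 0.16, adjusted p = 8.0e-08). Klkb1, plasma prekallikrein, which acts beside factor XI in the contact pathway, fell by 1.24 (adjusted p = 2.3e-05). Proz, protein Z, fell by 1.27 (adjusted p = 1.0e-05) and Serpinf2, the inhibitor of plasmin, by 0.80 (adjusted p = 7.6e-04). Among 26 apolipoproteins and enzymes of lipoproteins, 3 rose and 7 fell (4 and 4 with library totals alone), 2 and 3 of them under every alternative. Apoa1, the main protein of high-density lipoprotein, went from 5276 and 4853 to 2525 and 2427 CPM (-1.03 ± 0.17, adjusted p = 7.3e-04). Apoa4, an apolipoprotein of triglyceride-rich particles, went from 47.7 and 36.4 to 385 and 488 CPM, 10.4-fold higher (3.38 ± 0.47, adjusted p = 0.0032). Lcat, which esterifies cholesterol on high-density lipoprotein, rose by 1.27 ± 0.12 (adjusted p = 3.8e-06), while Lipc, hepatic lipase, fell by 1.24 (adjusted p = 5.4e-05).

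The major urinary proteins, pheromone carriers made by the male liver, fell in 15 of 16 tested genes, with a median of -3.75; 6 kept the call under every alternative. The genes are near-identical copies on 1 chromosome, so that values of single members are uncertain. Mup3 went from 8713 and 10910.2 to 1437 and 776 CPM (-3.15 ± 0.28, adjusted p = 1.2e-05). Mup21 went from 153 and 168 to 18.1 and 9.996 CPM (-3.50 ± 0.39, adjusted p = 8.9e-04). Summed over the tested members the level was 13199.6 and 21645 CPM in FF and 1799 and 1531 in KO libraries, and the FF libraries differed from each other more than the KO libraries did.

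Of 26 genes that are higher in male than in female mouse liver, 18 fell and 0 rose (median -1.88, 10 under every alternative). The list holds 2 major urinary proteins, and some other members also stand on other lists. Slco1a1, an organic anion transporter of the hepatocyte, went from 1774 and 1746 to 159 and 112 CPM, 12.96-fold lower (-3.70 ± 0.19, adjusted p = 1.1e-08). Sult5a1, a sulfotransferase, went from 11.52 and 17.4 to 0.508 and 0.769 CPM (-4.50 ± 0.44, adjusted p = 4.3e-06). Ugt2b38, a glucuronosyltransferase, fell by 2.10 (adjusted p = 5.6e-06) and Gstp1, a glutathione transferase, by 1.87 (adjusted p = 3.3e-06). Of 26 genes that are higher in females, 4 rose and 1 fell, with a median of 0.96 (0.87 with members at 0 counts in 1 group set at their bound). Cyp2b9 stood at 1.81 and 0.345 CPM in FF and 187 and 129.8 in KO livers (7.30 ± 0.62, adjusted p = 2.4e-04; 6.44 to 8.77 with 1 library left out). Cyp2b13 had 0 counts in FF and 42 in KO, at least 12.9-fold higher. The list was not uniform: Atp6v0d2, a subunit of the vacuolar proton pump, fell from 8.81 and 6.91 to 2.71 and 3.27 CPM (-1.38 ± 0.29, adjusted p = 0.0043). Transcripts of chromosome Y were counted in all 4 libraries. Xist stood at 1.36 and 1.38 CPM in FF and 11.01 and 0.961 in KO, 1 of which stood apart, and its part in the results was not tested.

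Growth hormone, whose pulses set many sex-biased genes in liver, acts through Stat5. Of 28 genes of growth hormone and insulin signalling, 3 rose and 4 fell. Cish, a feedback inhibitor and direct target of Stat5, went from 12.2 and 17.6 to 1.02 and 3.27 CPM (-2.84 ± 0.41, adjusted p = 2.8e-04; -3.88 to -2.20 with 1 library left out). Igfbp2, a binding protein for insulin-like growth factors, fell from 159 and 167 to 35.2 and 45.9 CPM (-2.01 ± 0.31, adjusted p = 0.0031). Gcgr, the glucagon receptor, fell by 0.68 (adjusted p = 0.0021), and Igf2r, which takes up insulin-like growth factor 2, rose by 0.68 ± 0.13 (adjusted p = 0.0023).

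Enzymes that process drugs and steroids fell in numbers above the background. Of 49 cytochromes P450 tested, 19 fell and 5 rose (median -0.49), 12 and 3 of them under every alternative. Cyp2e1, which oxidises ethanol and small solvents, stood at 4971 and 6293 CPM in FF and 2052 and 1485 in KO livers (-1.67 ± 0.21, adjusted p = 5.4e-05). Cyp2c67 went from 536 and 450.4 to 72.8 and 50.2 CPM (-3.00 ± 0.24, adjusted p = 8.3e-06) and shares close copies in the Cyp2c cluster. Cyp2c29 fell by 2.36 (adjusted p = 7.1e-05) and Cyp2d26 by 1.41 (adjusted p = 8.3e-06). Of 47 conjugating enzymes, which attach glucuronic acid, sulfate or glutathione, 17 fell and 2 rose (median -0.41), 11 and 0 under every alternative. Sult1a1, a phenol sulfotransferase, went from 194 and 203 to 77.1 and 72.1 CPM (-1.41 ± 0.13, adjusted p = 3.0e-06). Ugt3a1 fell by 1.66 (adjusted p = 7.2e-05) and Gstt3 by 1.65 (adjusted p = 4.6e-04).

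The carboxylesterases and other hydrolases and oxidases split in both directions with large changes, 4 of 35 higher and 11 lower (3 and 8 under every alternative). Ces3b, which like its neighbours cleaves ester bonds in drugs and lipids, went from 444 and 619 to 40.5 and 68.2 CPM, 9.81-fold lower (-3.29 ± 0.34, adjusted p = 3.6e-04). Ces1e fell by 2.35 (adjusted p = 2.5e-06) and Ces3a by 1.83 (adjusted p = 3.7e-04). Ces2e moved against them, from 103 and 88.1 to 383 and 397 CPM, 4.08-fold higher (2.03 ± 0.13, adjusted p = 7.1e-08). Members of this family of close copies thus moved with opposite signs, each beyond the spread between libraries, though reads shared between copies make single values uncertain.

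Hsd11b1, which regenerates active glucocorticoid in the liver, was among the falls with the smallest p, from 421 and 484 to 109 and 97.8 CPM (-2.13 ± 0.15, adjusted p = 1.4e-07). Genes of bile acid synthesis and handling fell in 10 and rose in 2 of 26 (median -0.69). Cyp27a1, which opens the acidic route of bile acid synthesis, fell from 509.5 and 522 to 208 and 250.3 CPM (-1.17 ± 0.14, adjusted p = 3.4e-05). Slco1b2, an uptake carrier for bile acids and drugs, fell by 1.26 (adjusted p = 3.7e-04) and Abcc3, an export pump of the basolateral membrane, by 1.11 (adjusted p = 0.0035). Slc10a2, the bile acid carrier known from ileum and bile ducts, went from 14.2 and 22.1 to 1.02 and 2.11 CPM (-3.57 ± 0.56, adjusted p = 0.0023; -4.17 to -3.11 with 1 library left out). Of 40 other hepatocyte transporters, 10 fell and 3 rose. Slc16a1, a carrier of lactate and pyruvate, was a rise, from 69.4 and 73.6 to 197 and 181 CPM (1.41 ± 0.15, adjusted p = 1.0e-05), and Slco2b1 a fall of 1.53 (adjusted p = 7.9e-07).

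Enzymes of amino acid breakdown fell in 14 and rose in 4 of 47 (median -0.25), but with library totals alone 10 fell and 10 rose; 6 falls held under every alternative. Ahcy, which removes S-adenosylhomocysteine and so clears the product of methylation reactions, stood at 243 and 316 CPM in FF and 66.9 and 76.7 in KO livers (-1.96 ± 0.14, adjusted p = 1.6e-07). Mat1a, which makes the methyl donor S-adenosylmethionine upstream of it, stood at 1317 and 1996 CPM in FF and 2189 and 2698 in KO (0.56 ± 0.18, adjusted p = 0.049), with the call lost at adjusted p = 0.053 with RLE scaling, 0.092 with only the 4 libraries compared, 0.42 without FF replicate 1, 0.051 without KO replicate 1 and 0.33 without KO replicate 2. Histidine breakdown fell at Uroc1 by 1.21 (adjusted p = 8.8e-05) and at Amdhd1 by 1.29 (adjusted p = 1.6e-04), which catalyse successive steps. Tat, tyrosine aminotransferase, fell by 1.17 (adjusted p = 2.9e-04) and Tdo2, which opens tryptophan breakdown, by 0.85 (adjusted p = 0.0025). Of 19 genes of the urea cycle and ammonia handling, 5 fell and 1 rose. Glul, glutamine synthetase, which traps ammonia in the hepatocytes around the central vein, fell from 723 and 829 to 328 and 181 CPM (-1.61 ± 0.22, adjusted p = 2.3e-04). Rhbg, an ammonium carrier of the same cells, rose from 7.68 and 7.43 to 18.3 and 22.3 CPM (1.42 ± 0.22, adjusted p = 3.8e-04).

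Of 39 genes of fatty acid and triglyceride synthesis, 10 fell and 3 rose (median 0.05), 4 and 2 under every alternative. Acacb, the acetyl-CoA carboxylase whose malonyl-CoA restrains fatty acid oxidation, went from 117 and 106 to 19.5 and 14.2 CPM, 6.58-fold lower (-2.72 ± 0.16, adjusted p = 3.9e-08). Thrsp, a regulator of lipogenesis, went from 163 and 192 to 39.5 and 44.0 CPM (-2.09 ± 0.30, adjusted p = 0.0019). Gpam, the first enzyme of triglyceride assembly, fell by 0.68 (adjusted p = 0.0024). Lpl, lipoprotein lipase, which frees fatty acids from plasma triglyceride and is low in adult liver, went from 70.3 and 48.7 to 385 and 299 CPM, 5.77-fold higher (2.53 ± 0.21, adjusted p = 2.9e-06). The genes of cholesterol synthesis and uptake fell in 10 and rose in 1 of 30 (median -0.23), and with library totals alone in 5 and 3.

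Of 47 genes of fatty acid oxidation and ketogenesis, 10 rose and 4 fell (median 0.14), and with library totals alone 21 rose and 3 fell. Acot2, a mitochondrial thioesterase, went from 2.71 and 2.25 to 13.7 and 8.65 CPM (2.19 ± 0.37, adjusted p = 0.0012), and its neighbour Acot1 rose by 1.92 ± 0.33 (adjusted p = 0.0010). Crat, carnitine acetyltransferase, rose by 1.43 ± 0.21 (adjusted p = 2.4e-04). Glucose and glycogen genes fell in 6 and rose in 3 of 41 (median 0.04), with 3 and 12 when library totals alone were used. Gckr, the regulator that holds glucokinase in the nucleus, fell by 1.38 (adjusted p = 8.1e-06), Gbe1, the glycogen branching enzyme, by 1.27 (adjusted p = 1.2e-04), and Pfkfb1, which sets fructose 2,6-bisphosphate, by 1.36 (adjusted p = 8.7e-04). Of 43 nuclear genes of oxidative phosphorylation, 4 rose and 1 fell (median 0.15), none of them under every alternative, and with library totals alone 19 rose and 0 fell.

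Transcription factors of the hepatocyte fell in 11 of 41 with 0 rising (median -0.23), 5 under every alternative, and in 5 with 1 rising with library totals alone. Hnf4a, the central factor of the hepatocyte programme, stood at 747 and 621 CPM in FF and 591 and 649 in KO livers and was not called (-0.14 ± 0.18, adjusted p = 0.66). Foxa1, a pioneer factor, stood at 46.3 and 39.7 CPM in FF and 27.6 and 18.3 in KO (-0.90 ± 0.17, adjusted p = 0.0022). Nr1i3, the xenobiotic receptor CAR, stood at 64.6 and 80.8 CPM in FF and 45.6 and 33.1 in KO (-0.89 ± 0.17, adjusted p = 0.0024). The falls in this list were thus smaller than those of many enzymes and secreted proteins. Rxra, the shared partner of many nuclear receptors, fell by 0.69 (adjusted p = 0.0026) and Ppargc1a, a coactivator of mitochondrial and fasting genes, by 0.86 (adjusted p = 0.0015). By position in the liver lobule, of 35 pericentral genes 10 fell and 3 rose (median -0.35), and of 30 periportal genes 10 fell and 1 rose (median -0.58). Both zones held falls above the 7.88% background, and a difference between zones was not tested. Pigr, which carries immunoglobulin A into bile, stood at 1731 and 2007 CPM in FF and 338 and 519 in KO livers (-2.12 ± 0.22, adjusted p = 1.1e-05). Ang, angiogenin, stood at 191 and 151 CPM in FF and 40.1 and 35.8 in KO (-2.17 ± 0.26, adjusted p = 3.8e-04). Cldn2, a claudin of hepatocyte tight junctions, stood at 97.2 and 95.2 CPM in FF and 20.8 and 13.8 in KO (-2.46 ± 0.19, adjusted p = 3.7e-07).

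Ribosomal protein genes fell slightly in 10 of 48 (median -0.29), 3 of them under every alternative, and with library totals alone 1 rose and 3 fell (median -0.04). Among the falls called under every alternative Rpl15 was the largest at 0.94 (adjusted p = 0.0023), followed by Rpsa at 0.73 (adjusted p = 0.0035) and Rpl8 at 0.63 (adjusted p = 0.0028). In the endoplasmic reticulum list, which holds chaperones and the regulators of the response to unfolded proteins, 6 of 36 fell and 1 rose. Xbp1, a factor that expands the secretory apparatus, went from 173 and 141 to 73.7 and 79.6 CPM (-1.03 ± 0.13, adjusted p = 7.1e-05), and Atf4, the effector of the integrated stress response, from 98.1 and 95.9 to 59.5 and 45.8 CPM (-0.88 ± 0.15, adjusted p = 7.0e-04).

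Of 36 targets of Nrf2 and antioxidant genes, 7 rose and 4 fell (5 and 2 under every alternative). Nfe2l2, the gene of Nrf2 itself, went from 125 and 89.8 to 236 and 236 CPM (1.14 ± 0.17, adjusted p = 3.3e-04). Nqo1, a quinone reductase, went from 3.84 and 4.66 to 11.52 and 10.2 CPM (1.34 ± 0.29, adjusted p = 0.0052), and Srxn1, sulfiredoxin, rose by 1.14 ± 0.15 (adjusted p = 9.3e-05). G6pdx and Ephx1, described above, also stand on this list, and so does Abcc3, which fell by 1.11 (adjusted p = 0.0035). Log2 changes in the list ran from -1.88 to 2.60. In the lysosome and autophagy list 6 of 34 rose and 3 fell. Gusb, the lysosomal beta-glucuronidase, rose by 1.005 ± 0.15 (adjusted p = 2.7e-04), and Sqstm1, the autophagy receptor p62, fell by 0.76 (adjusted p = 9.2e-04). Of 34 genes of iron and haem, 6 fell and 0 rose, with Ftl1, the ferritin light chain, at 563 and 612 CPM in FF and 241 and 335 in KO livers (-1.03 ± 0.16, adjusted p = 3.4e-04).

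Interferon-stimulated genes fell in 11 of 39 with 0 rising (median -0.47), 5 under every alternative. Ifit1, an antiviral RNA-binding protein, went from 49.7 and 45.6 to 11.4 and 12.3 CPM (-2.01 ± 0.20, adjusted p = 4.7e-06). Rsad2, viperin, went from 20.6 and 15.4 to 5.59 and 6.73 CPM (-1.54 ± 0.25, adjusted p = 4.9e-04). Irf9, which with the Stat proteins forms the interferon-activated factor, fell by 0.99 (adjusted p = 6.1e-04). Of 25 clock genes and outputs, 2 rose and 5 fell, and only the 2 rises held under every alternative. Arntl, or Bmal1, the activator of the clock, stood at 11.7 and 7.08 CPM in FF and 38.6 and 35.9 in KO livers (2.01 ± 0.26, adjusted p = 1.4e-04), and Npas2, its partner, at 1.36 and 1.04 CPM in FF and 6.78 and 5.96 in KO (2.42 ± 0.42, adjusted p = 0.0011). Dbp, a rhythmic output gene, stood at 47.7 and 46.1 CPM in FF and 8.64 and 9.61 in KO (-2.36 ± 0.54, adjusted p = 0.026), with the call lost at adjusted p = 0.057 with no expression filter, 0.092 without FF replicate 1, 0.10 without FF replicate 2, 0.15 without KO replicate 1 and 0.13 without KO replicate 2. The times of day at which the livers were taken are not given in the sources used here, and their part in these values was not tested.

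The counts of the next lists are read against 6.92% of all genes higher and 7.88% lower. Of 28 immediate early genes, 5 rose and 1 fell; Gadd45b, a stress-induced regulator of p38 signalling, had 3 counts over the FF and 37 over the KO libraries, a ratio of 11.3-fold (counting interval 3.59 to 57.5), and Fosl2, a subunit of AP-1, rose by 1.10 ± 0.23 (adjusted p = 0.0038). Of 29 genes of senescence and its secreted factors, 7 rose (2 under every alternative) and 0 fell, with a median of 0.22. Cdkn1a, described above, is 1 of these rises. The adhesion molecules Icam1 and Vcam1 rose by 1.32 ± 0.19 (adjusted p = 1.9e-04) and 1.02 ± 0.15 (adjusted p = 2.2e-04). Of 27 genes of fetal liver and liver tumours, 5 rose and 0 fell. Lgals1, galectin 1, was 2.94 and 2.25 CPM in FF and 11.01 and 10.2 in KO livers (2.05 ± 0.29, adjusted p = 1.9e-04). YAP targets gave 3 higher and 0 lower of 25, none under every alternative. The immunoproteasome and antigen presentation list gave 1 higher and 1 lower of 23.

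**Figure D3:**
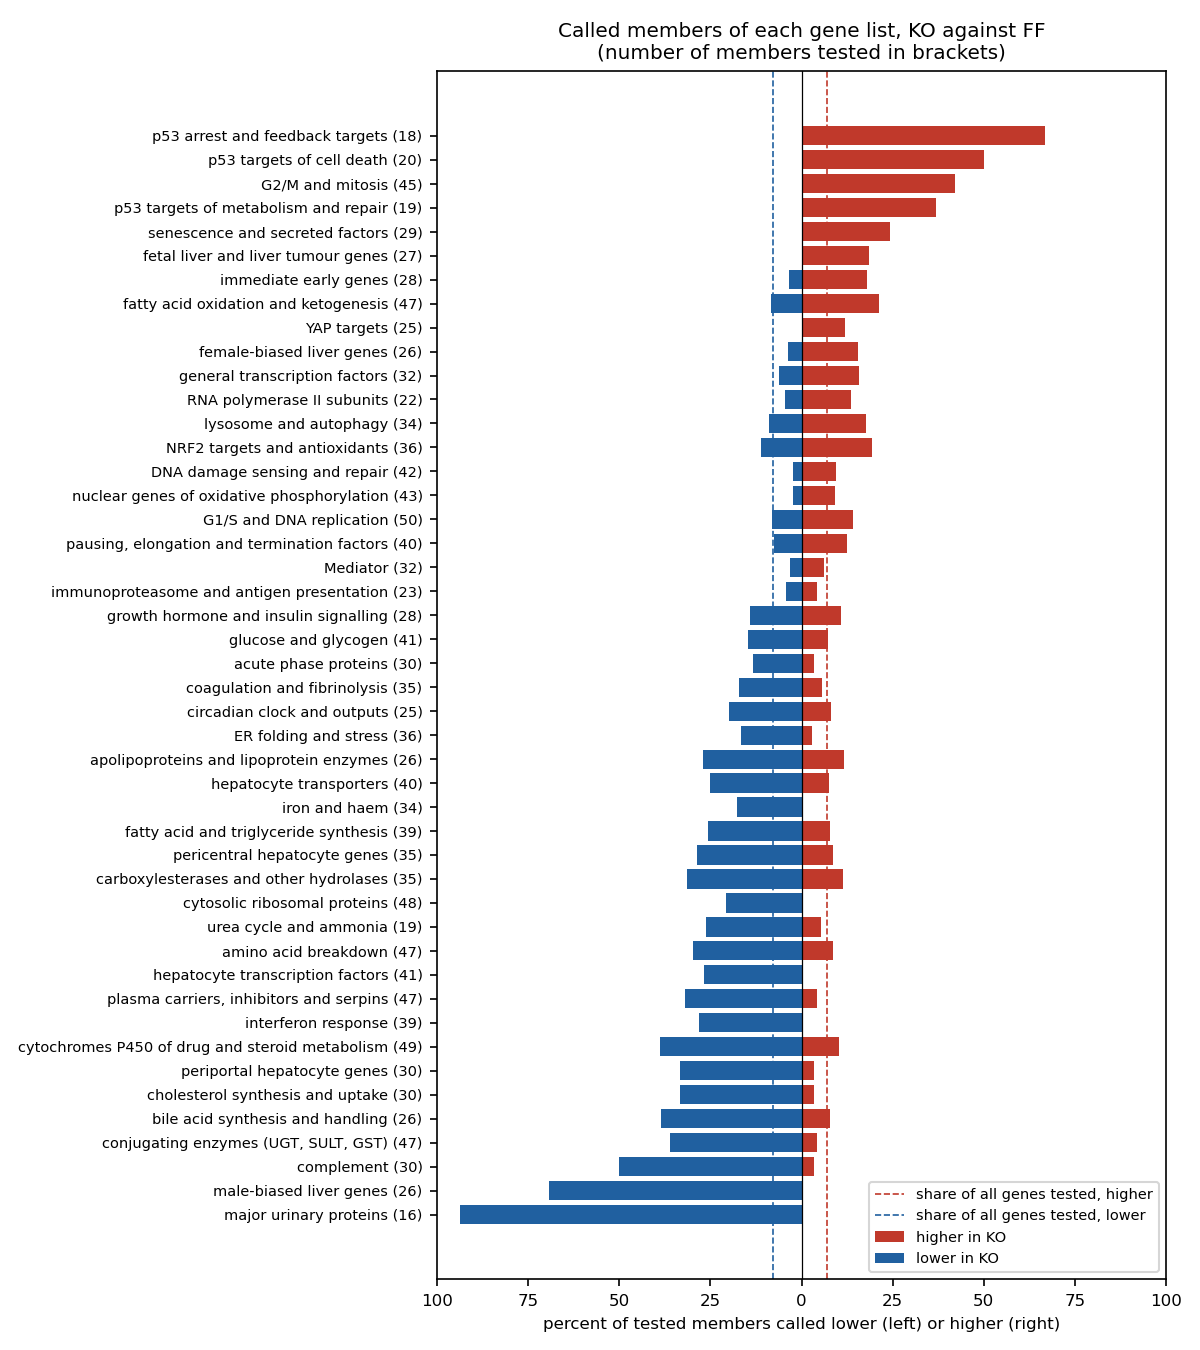
Percent of tested members called higher (red, right) and lower (blue, left) in KO livers for each gene list, with the number of members tested in brackets; dashed lines are the shares over all genes tested, 6.92% higher and 7.88% lower. Members of the p53 and mitosis lists were called higher and not lower, major urinary proteins and male-biased genes were mostly called lower, and the lists of secreted proteins and drug-metabolising enzymes held more members called lower than higher.

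The defining markers of hepatocytes fell, and few markers of other liver cells were called with TMM scaling. Of 13 hepatocyte markers, 7 fell and 0 rose, and their summed level was 138642 and 137998 CPM in FF and 81372 and 97786 in KO livers. Asgr1, the asialoglycoprotein receptor of the hepatocyte surface, fell from 174 and 202 to 77.8 and 96.7 CPM (-1.11 ± 0.14, adjusted p = 4.2e-05). In bulk tissue, fewer cells of a type and less RNA per cell cannot be told apart. Summed markers of stellate cells and fibroblasts were 993 and 829 CPM in FF and 1188 and 1088 in KO (2 of 25 called higher, 7 with library totals alone, median 0.28). Those of Kupffer cells and macrophages were 979 and 1089 in FF and 1155 and 1321 in KO (3 of 24 higher, 13 with library totals alone). Log2 changes in the Kupffer cell and macrophage list had a median of 0.37 and reached 4.98. Sinusoidal endothelial markers were 1629.6 and 1503 CPM in FF and 1426 and 1309.9 in KO (1 of 22 higher), and cholangiocyte markers 454 and 338 in FF and 341 and 405 in KO (2 of 16 higher). None of the tested markers of T and NK cells (11 tested), B cells (4), neutrophils (6) or erythroid cells (5) was called in either direction. Their part in the changes above was not tested. Of the cholangiocyte list only Ddit4l kept its call under every alternative, 2.71 and 1.38 CPM in FF and 10.3 and 16.9 in KO livers (2.77 ± 0.43, adjusted p = 4.4e-04). Krt19, a keratin of bile ducts, stood at 1.81 and 2.42 CPM in FF and 2.03 and 3.27 in KO and was not called (0.29 ± 0.49, adjusted p = 0.75).

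The share of genes that fell differed with their usual level. Genes were ranked by their mean CPM in the 2 p53KO libraries, which are not part of the comparison, and cut into 10 bins of equal size. In the lowest bin 0.584% of genes were called lower and 8.18% higher, and in the highest bin 21.7% lower and 4.38% higher, while the median log2 change went from 0.49 to -0.13. Between these ends the share called lower rose with the level in each step. Low counts limit what can be called in the lowest bins. The filter also passed genes that were high enough in other groups, KO among them. Genes of the lowest bin, at up to 1.05 CPM in p53KO, could pass in that way, which favours rises there. The part of the filter in these shares was not tested. With library totals alone the highest bin had 12.04% lower and 21.2% higher, so the balance of directions in that bin depends on scaling. Bins by counted exon length differed little, from 5.47% to 7.96% higher and from 6.64% to 9.34% lower, and bins by genomic span likewise, from 5.47% to 8.77% and from 6.79% to 8.84%.

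**Figure D4:**
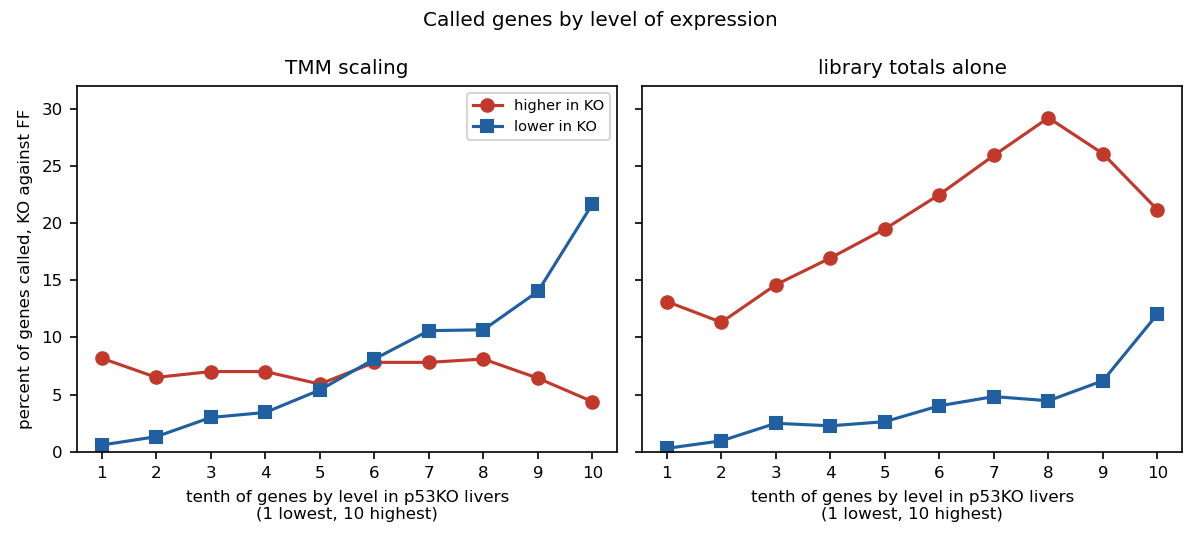
Percent of genes called higher (red) and lower (blue) in KO livers, in 10 bins of genes ranked by mean CPM in p53KO livers, with TMM scaling (left) and with library totals alone (right). The share called lower climbs from 0.584% in the lowest to 21.7% in the highest bin with TMM scaling and reaches 12.04% with library totals alone, where rises exceed falls in each bin.

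For part of the genes the effect of the deletion differed in livers without p53. The effect of Gdown1 loss in DKO against p53KO livers at 8 weeks was compared with that in KO against FF livers at 7 weeks by the difference of both effects in 1 model. The 2 effects share no library, but p53 genotype and age, and the set of libraries, go together and cannot be told apart. The difference was called for 22.7% of all genes: 9.75% with the effect more upward without p53 and 12.9% more downward. Among the 2026 genes called in KO against FF, it was called for 709 (35.0%). With library totals alone the difference was called upward for 3588 genes and downward for 499 (87.8% upward against 43.0%), with a shift of the all-gene median of 0.51, and with upper quartile scaling for 1851 and 1077 (63.2% upward), with a shift of 0.19. Each gene named below as differing kept that call under the 18 alternatives.

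Some of the p53 targets rose less or not at all without p53, and others rose in both. Ccng1 changed by 1.95 with p53 and by -0.59 without it, a difference of -2.54 ± 0.21 (adjusted p = 1.9e-06). For Zmat3, an RNA-binding protein that rose from 14.5 and 11.2 to 58.8 and 77.9 CPM in the 7-week livers, the effects were 2.42 and 0.73 (difference -1.69 ± 0.31, adjusted p = 0.0013). For Mdm2 they were 1.64 and -0.11 (difference -1.75 ± 0.25, adjusted p = 1.9e-04). Over the 3 p53 lists the difference was called downward for 6 of 18, 6 of 20 and 10 of 19 members, and upward for 0, 1 and 0. Cdkn1a, whose call at 7 weeks depended on single libraries, had effects of 6.21 and 7.56 (difference 1.35 ± 4.02, adjusted p = 0.85), and Gtse1 of 2.97 and 3.63 (difference 0.66 ± 0.65, adjusted p = 0.50), neither called. With 0 and 1 counts of Cdkn1a in the p53KO libraries, its effect of 7.56 depends on the small count that the fit adds. Ces2e, on none of these lists, changed by 2.03 with p53 and by 0.21 without it (difference -1.82 ± 0.18, adjusted p = 9.8e-06).

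Mitosis genes went the other way, with larger rises where p53 was absent. The difference was called upward for 39 of the 45 members and downward for 0, and the median effect was 1.34 with p53 and 4.76 without it. Markers of other cell types moved with it: the difference was called upward for 18 of 25 stellate cell and fibroblast markers (median effect 0.28 with p53 and 1.74 without it). It was called upward for 14 of 24 Kupffer cell and macrophage markers (0.37 and 1.47) and for 5 of 16 cholangiocyte markers (0.22 and 1.93). Their part in the mitosis, interferon and hepatocyte values was not tested. Top2a changed by 1.63 and 5.003 (difference 3.37 ± 0.31, adjusted p = 5.4e-06), Hmmr by 1.52 and 5.99 (difference 4.47 ± 0.45, adjusted p = 1.3e-05). Interferon-stimulated genes also differed, upward in 23 of 39 and downward in 0. Ifit1 fell by 2.01 with p53 and had an effect of 0.81 without it (difference 2.82 ± 0.26, adjusted p = 5.4e-06). Their medians were -0.47 with p53 and 0.57 without it, on opposite sides of 0.

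Several hepatocyte genes that fell with p53 present fell further without it. Of the 13 defining markers of hepatocytes, the difference was called downward for 11 and upward for 0 (median effect -0.50 with p53 and -1.52 without it). Serpina1e, a form of alpha-1-antitrypsin from a family of close copies, stood at 6718 and 7739.8 CPM in FF and 1781 and 2150.0 in KO livers; its effects were -1.88 and -7.71 (difference -5.83 ± 0.33, adjusted p = 6.5e-08). For Ces3b they were -3.29 and -7.98 (difference -4.69 ± 0.54, adjusted p = 5.6e-04). Over the male-biased list the difference was called downward for 19 of 26 and upward for 0. Some genes that rose with p53 did not rise without it. Mbl2 rose by 1.40 with p53 and had an effect of -1.65 without it (difference -3.05 ± 0.22, adjusted p = 4.9e-07), and Lcat, which rose by 1.27 with p53, differed by -1.27 (adjusted p = 1.2e-04). Tdo2 fell by 0.85 with p53 and had an effect of -3.24 without it (difference -2.39 ± 0.24, adjusted p = 1.1e-05).

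**Figure D5:**
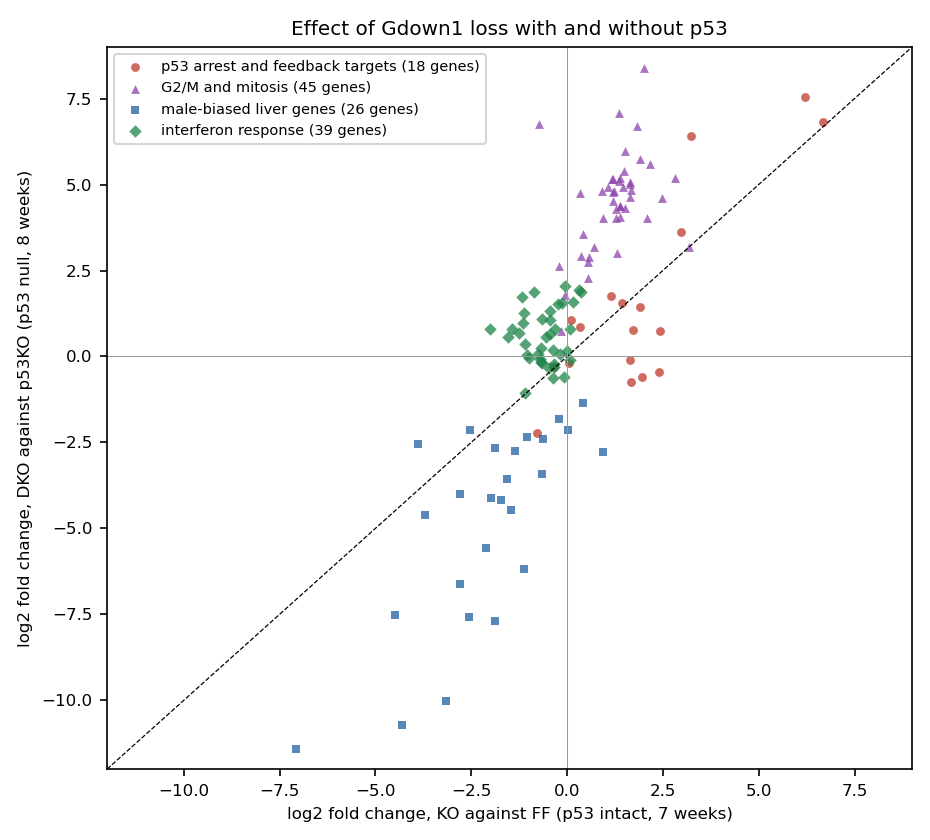
Log2 fold change on loss of Gdown1 in livers with p53 at 7 weeks (horizontal, KO over FF) and in livers without p53 at 8 weeks (vertical, DKO over p53KO) for the tested members of 4 lists; the dashed line marks equal effects. Points are genes, not replicates. Most mitosis genes (purple) lie above the line, most male-biased genes (blue) below it, and the p53 targets of arrest and feedback (red) on both sides.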

How the data were processed

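RNA of mouse liver was measured in 12 libraries (SMARTer Stranded Total RNA kit, per the labels' protocols), 2 per group; 4 are compared here. The deposited values are whole-number read counts for each gene, not normalized. Per the submitters' processing notes the authors used CASAVA 1.82, HISAT2, featureCounts and mm10 (GRCm38). Per the file headers of the 7-week libraries, featureCounts 1.6.4 was run on exons grouped by gene, without options for strand, read pairs or multiple mapping, so overlapping, antisense and near-identical genes can share or lose reads.

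The tests used edgeR 4.0.16 in R 4.3.3. Genes were kept by filterByExpr (minimum count 10) and scaled by TMM, and 1 model with a mean per group was fitted to the 12 libraries, with robust quasi-likelihood tests (6 residual degrees of freedom; biological coefficient of variation 0.124) and Benjamini-Hochberg adjustment over 13693 genes. Tested genes held at least 99.8% of the counts of each library. The SE was obtained as log2 change over the root of the F statistic. A fold against 0 counts is a bound against 3 counts over the group; with 1 to 3 counts it has a 95% exact interval. These cover counting error only. Replicate libraries differed beyond sampling noise. The fit was tested on simulated data.

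Members and lists were chosen with earlier results of these data known; lists were not tested, only counted. Genes named are Polr2m, Trp53, Polr2a, the 20 largest changes per direction at 5 CPM or more, the 10 smallest p and 10 largest CPM differences per direction, up to 6 members by p and 3 by level per list, markers as checks, and up to 6 genes per direction by difference of effects; fewer are printed, and some results are not reported here. The alternatives changed the scaling (RLE, upper quartile, library totals), the filter (2 others), the tool (DESeq2 1.42.0, limma-voom from limma 3.58.1) or the libraries (the compared ones alone, each left out), added a replicate block, dropped mitochondrial, haemoglobin and ribosomal RNA genes, or called at an adjusted p under 0.01. The threshold of 0.01 is not among the 14 and 18 settings over which calls are said to be kept.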

Additional observations from a re-analysis of the deposited data

Results flagged for a closer look

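The effect of Gdown1 loss differed between livers with p53 (KO against FF, 7 weeks) and without it (DKO against p53KO, 8 weeks) for 23 genes examined one by one, by the test of the difference of both effects in edgeR with adjustment over all genes; age and p53 genotype cannot be told apart. Differences are log2 effects without p53 minus with p53, and each kept its call under the 18 alternatives. They were marked because the difference itself passed the test.

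Among p53 targets and genes that rose with them, the difference was -2.54 for Ccng1, -2.50 for 9030617O03Rik, -1.69 for Zmat3, -1.75 for Mdm2, -2.40 for Trp53inp1, a regulator of autophagy and cell death, and -1.81 for Ces2e. The mitosis genes had 3.37 for Top2a, 3.02 for Kif11, 4.47 for Hmmr, 3.94 for Sgol2, which protects centromeric cohesion, and 3.89 for Prc1, which bundles microtubules of the central spindle. Upward differences were also seen for the interferon-stimulated genes, with 2.82 for Ifit1 and 2.09 for Rsad2, and for Atp6v0d2, with 3.23.

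Secreted proteins and enzymes differed downward: -5.83 for Serpina1e, -3.95 for Mup21, -3.05 for Mbl2 and -1.27 for Lcat. The values were -4.69 for Ces3b, -2.39 for Tdo2, -2.14 for Mat1a, -5.00 for Slc22a28, an organic anion transporter gene, and -3.13 for Mgmt, which removes alkyl groups from guanine. At 7 weeks the calls of 6 of these genes were lost in some settings. The adjusted p for Sgol2 was 0.069 with limma-voom, 0.070 without FF replicate 1, 0.10 without FF replicate 2 and 0.084 without KO replicate 1. Without FF replicate 2 it was 0.13 for Prc1, 0.053 for Hmmr and 0.10 for Mgmt, and without KO replicate 2 0.051 for Prc1 and 0.063 for Mgmt. With only the 4 libraries compared it was 0.060 for Trp53inp1. Mat1a had 0.053 with RLE scaling, 0.092 with only the 4 libraries compared, 0.42 without FF replicate 1, 0.051 without KO replicate 1 and 0.33 without KO replicate 2.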

How the results depend on the processing

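For KO against FF, 2026 genes were called (947 higher, 1079 lower). Library totals alone gave 3294 (2744 and 550), and an adjusted p under 0.01 gave 960 (395 and 565). With 1 library left out the count ran from 1087 to 1285 (469 to 621 higher, 596 to 736 lower). The other settings gave 1632 (DESeq2) to 2094. For the difference of effects, 3107 genes were called (1335 upward, 1772 downward). Library totals alone gave 3588 upward and 499 downward, upper quartile scaling 1077 downward, and an adjusted p under 0.01 gave 1545 (639 and 906). With 1 library left out it ran from 1970 to 2751 (806 to 1110 upward, 1129 to 1641 downward). In the highest of 10 bins by level, library totals alone gave 21.2% higher and 12.04% lower. The cause was not tested; a library left out means fewer samples.

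The labels share replicate numbers between groups but do not say that they pair animals. Differences between replicates 1 and 2 in FF and KO correlated at 0.19 over 10175 genes, with only 2 pairs. With the replicate number as a block, 2094 genes were called for KO against FF and 3212 for the difference of effects. Of 56 list medians, 12 changed sign with library totals alone. No named gene that was called turned its direction; Cyp3a11, Hnf4a, Krt19 and Xist, not called, changed sign under at least 1 alternative. A library's 3 counts equal 0.508 to 0.678 CPM, and levels below that are not told from 0.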

Other observations

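Cyp3a11, the main cytochrome P450 of drug clearance in mouse liver, differed between the libraries of each group. It stood at 1205 and 4147 CPM in FF and at 1728 and 6553 in KO livers (0.63 ± 0.73, adjusted p = 0.64), so that replicate 2 was higher than replicate 1 in both groups. With the replicate block its log2 change was 0.59 (edgeR adjusted p = 0.029), a call that no other alternative gave. The labels give no batch or collection time for these libraries.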
